A study of Rattus norvegicus with 6 samples.

Results

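RNA-seq counts of 47 genes of MHC class I and antigen processing were compared between rat H9c2 cells with and without Nono. The 47 genes were every gene whose symbol starts with RT1-, the name of the rat MHC, which gave 33 genes, and 14 named genes that regulate, process, load or assemble with MHC molecules. They were taken from the 16319 genes of the count table. The H9c2 line consists of myoblasts derived from the embryonic rat heart, and its RNA is labelled as cardiac muscle. WT cells were H9c2 cells of wild type genotype. Nono-KO cells were H9c2 cells transfected with the PX459 plasmid, which carries Cas9, a guide RNA against Nono and puromycin resistance, and then selected with puromycin. Nono encodes a nuclear RNA- and DNA-binding protein of paraspeckles. Each group had 3 libraries. The labels name a pEGFP-N1 control plasmid but do not say whether the sequenced WT cells received it, and the edited cells were clones kept after selection, so effects of Nono loss and of the clone or its selection cannot be told apart. The methods call the libraries of a group biological replicates without saying what was kept separate, and p-values reflect the spread from library to library.

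MHC class I molecules show peptides from inside the cell to CD8 T cells and natural killer cells. A class I molecule is a heavy chain, encoded in the rat by RT1 genes, joined to the light chain beta-2-microglobulin. The proteasome cuts the peptides, the TAP transporter carries them into the endoplasmic reticulum, and a loading complex holds the heavy chain until a peptide fits. NLRC5 is a coactivator that acts at class I promoters together with RFX and other factors, and CIITA is its relative at class II promoters. Interferon raises most of these genes in many cell types, and muscle cells in culture usually carry low levels of class I.

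The Nono counts were 7329, 5884 and 5519 in WT against 109, 94 and 96 in Nono-KO, so the labels and the targeted gene went together. Libraries held 17612958 to 19253858 counts, of which the 47 genes took 0.121% to 0.145%. Markers of cardiac muscle were mixed. Myh6, Nppa, Tnni3 and Tbx5 reached at most 18, 2, 11 and 1 counts in any library, whereas Tnnt2 had 13.4 to 137 CPM (the count scaled to library size after TMM normalisation), Nkx2-5 17.7 to 42.2 CPM and Gata4 15.1 to 20.1 CPM. The skeletal myoblast factor Myod1 had 113 to 161 CPM. The summed level of 14 muscle markers was 201 to 322 CPM in WT and 971 to 1128 CPM in Nono-KO. Acta1, Myog and Des had means of 14.7, 6.50 and 22.1 CPM in WT and 480, 106 and 96.8 CPM in Nono-KO. Of 9 markers tested as described below, 5 rose, 0 fell and 4, Myod1 among them, did not pass. Among all tested genes 34.2% were higher and 38.1% lower. Tnnt2 had 13.4 CPM in WT 1 and 78.0 and 83.0 CPM in WT 2 and WT 3. The part of the muscle marker shift in the class I results was not tested.

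Promoter stretches are shown for processing genes and class I genes whose window held letters of a known regulatory motif, because these are the genes whose levels are described next. Promoter sequences were those of RefSeq on build GRCr8, from 250 bases before to 50 bases after each gene's start, and 41 of the 47 genes had an entry, with 25 of 26 class I genes among them. The letters GAAANNGAA, a form of the core of the interferon-stimulated response element, were searched on both strands, and variants of them were not. They were found in 9 of the 41 promoters and in 9.50% of all 27457 promoters. In the stretches below the capitals mark these letters, or their reverse complement, and each stretch ends at or before the base preceding the start.
Tap1 (chr20:4668625-4668693, - strand): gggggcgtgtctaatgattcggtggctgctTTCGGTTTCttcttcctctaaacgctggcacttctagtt
Tap2 (chr20:4652299-4652367, - strand): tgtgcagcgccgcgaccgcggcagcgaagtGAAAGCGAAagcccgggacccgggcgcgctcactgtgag
Tapbp (chr20:4967878-4967933, - strand): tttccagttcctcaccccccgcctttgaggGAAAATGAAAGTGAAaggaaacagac
Psmb10 (chr19:50743293-50743395, - strand): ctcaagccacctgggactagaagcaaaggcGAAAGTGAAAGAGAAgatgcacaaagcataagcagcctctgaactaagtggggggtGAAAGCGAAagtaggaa
B2m (chr3:129549150-129549218, + strand): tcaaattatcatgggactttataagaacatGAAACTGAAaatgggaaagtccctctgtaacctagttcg
RT1-S3 (chr20:2675387-2675455, + strand): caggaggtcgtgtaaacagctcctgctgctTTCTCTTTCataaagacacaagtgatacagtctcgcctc
The match began 120 bases before the start in Tap1, 41 in Tap2, 26 in Tapbp, 73 in Psmb10, 150 in B2m and 111 in RT1-S3. Psmb10 held 3 matches and Tapbp 2, and matches overlapped each other in both. Psmb8, RT1-N3 and RT1-S2 were the other genes with a match. The windows of RT1-A1, RT1-A2, RT1-CE5 and Psmb9 held none of these letters. They may still hold a variant of the element, which was not searched.

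The letters GGGANNNCC, of the NF-kB type, were found in 12 of the 41 promoters and in 18.1% of all promoters, and 10 of the 12 were class I genes. In 8 of these the letters read as the palindrome GGGATTCCC, which matches on both strands and was counted once. The next stretches show how alike the surrounding bases are in 3 of them and how RT1-M3-1 differs, with the matching letters in capitals.
RT1-A1 (chr20:4907054-4907122, + strand): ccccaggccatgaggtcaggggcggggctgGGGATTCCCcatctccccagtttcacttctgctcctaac
RT1-A2 (chr20:4872668-4872736, + strand): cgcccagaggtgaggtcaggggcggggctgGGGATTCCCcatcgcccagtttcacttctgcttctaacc
RT1-CE4 (chr20:3509311-3509379, - strand): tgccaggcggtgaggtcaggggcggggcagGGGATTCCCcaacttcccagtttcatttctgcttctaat
RT1-M3-1 (chr20:1333465-1333533, - strand): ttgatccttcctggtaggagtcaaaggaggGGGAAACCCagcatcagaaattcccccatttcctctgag
The match began 125 bases before the start in RT1-A1, 173 in RT1-A2, 193 in RT1-CE4 and 137 in RT1-M3-1. TTCNNNGAA, of the STAT type, was found in 2 of the 41 promoters and 8.68% of all, and TGACG, part of the cAMP response element, in 12 of the 41 and 22.0% of all. These matches describe the letters in a window of the reference genome and do not show that a factor binds there. The promoters of the H9c2 line itself were not read.

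Antigen presentation genes moved in both directions in Nono-KO cells. The regulator Nlrc5, the 3 inducible proteasome subunits, both TAP subunits and 8 class I heavy chain genes rose, whereas Ciita, Erap1, Canx, Pdia3 and the class I gene RT1-S3 fell. Of the 47 genes, 27 had enough counts to be tested, and 16 rose and 5 fell at an adjusted p under 0.05 by the quasi-likelihood test of edgeR with Benjamini-Hochberg adjustment. Changes were common in all genes, since 72.2% of 12028 tested genes passed, 34.2% higher and 38.1% lower, so the total of 21 of 27, or 77.8%, was close to that share. The median log2 fold change was 1.02 over the 27 genes and -0.05 over all tested genes. With the study's stricter thresholds (adjusted p below 0.01, more than 1 on the log2 scale in either direction) 14 of the 27 were higher and 4 lower, beside 10.8% and 18.7% of all tested genes. The groups did not overlap for 21 of the 27, beside 75.1% of all tested genes.

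**Figure D1:**
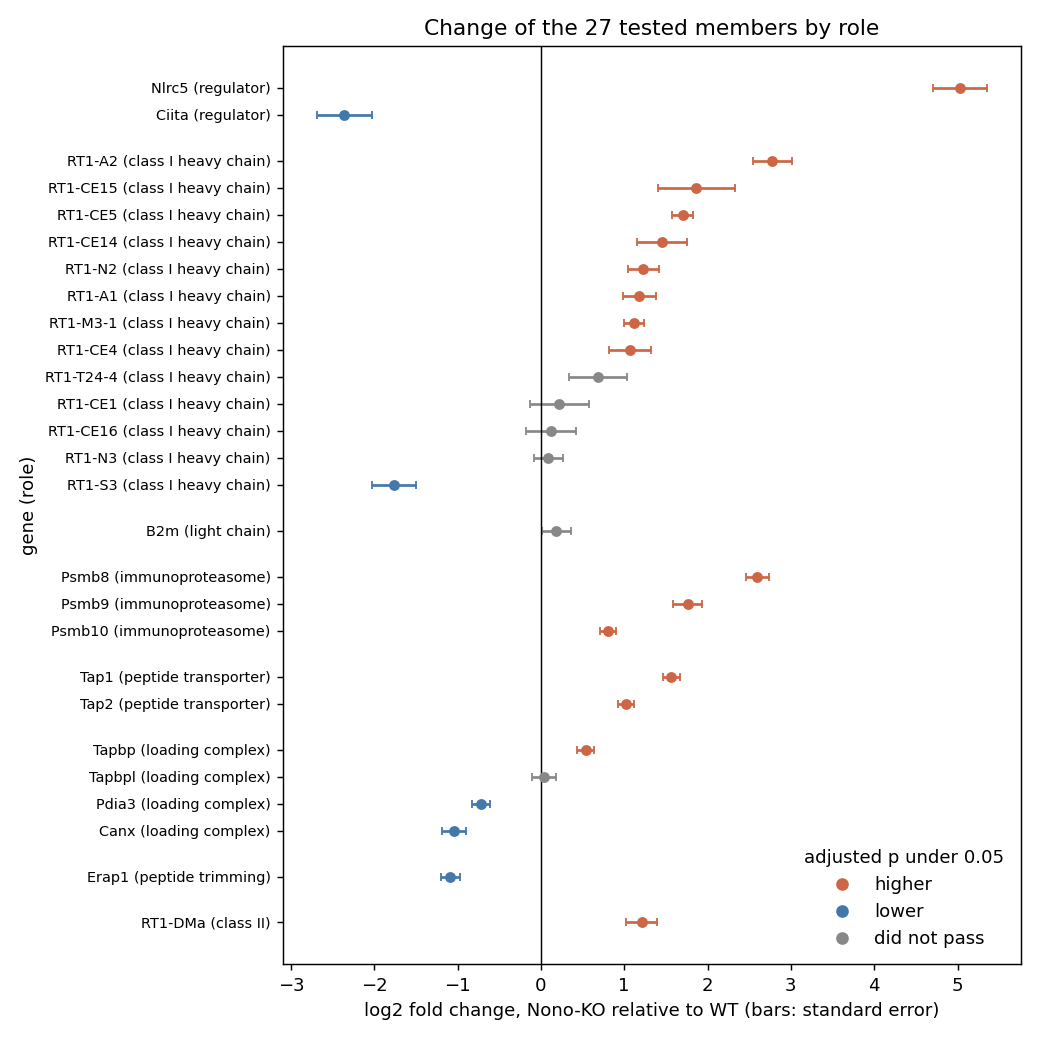
Log2 fold change, with Nono-KO set against WT (x axis), for the 27 tested genes, grouped by role (y axis), with bars for the standard error and colours for genes that passed higher, passed lower or did not pass an adjusted p of 0.05. Nlrc5 lies farthest to the right at 5.03, the proteasome and transporter genes all lie above 0, and Canx, Pdia3 and Erap1 lie below 0.

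Nlrc5, the class I coactivator, went from near absence to clear detection. Its counts were 7, 2 and 3 in WT against 134, 132 and 116 in Nono-KO. Every Nono-KO library was thus far above every WT library. The ratio of total counts, scaled for library size, was 33.5 (95% interval 19.0 to 65.4, exact, for counting error only), and the fitted log2 fold change was 5.03 ± 0.32 (SE, n = 3 per group, edgeR adjusted p = 1.93e-07). WT 1 held 7 of the 12 WT counts, and without it the log2 fold change was 5.63. Ciita, the class II coactivator, went the other way. It had 79, 39 and 62 counts in WT against 11, 8 and 14 in Nono-KO, without overlap. Its log2 fold change was -2.36 ± 0.33 (edgeR adjusted p = 5.35e-05), which is 5.12-fold lower.

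The class I heavy chain genes rose as a whole. Their 26 genes summed to 79.7, 61.5 and 61.0 CPM in WT and to 141, 146 and 124 CPM in Nono-KO. The lowest Nono-KO library lay above the highest WT library, and the means were 67.4 ± 10.6 CPM and 137 ± 11.5 CPM (SD, n = 3). In the fit across all genes the sum had a log2 fold change of 1.02 ± 0.12 (SE, edgeR adjusted p = 1.13e-05), and the exact two-sided permutation p was 0.1, the smallest that 3 against 3 libraries can give. Of the 26 genes 13 were tested, of which 8 rose, 1 fell and 4 did not pass. The share that passed, 69.2%, was close to the 72.2% of all tested genes. Of all tested genes 34.2% were higher and 38.1% lower. Reads shared between RT1 paralogs may have been split or dropped in counting, so the values of single RT1 genes are uncertain. Reads were also assigned by a reference genome, and whether the RT1 genes of H9c2 cells differ from it was not examined.

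RT1-A genes encode the classical class I molecules of the rat. RT1-A1 had 5.97, 4.71 and 3.84 CPM in WT and 12.6, 11.2 and 9.27 CPM in Nono-KO, a log2 fold change of 1.18 ± 0.19 (edgeR adjusted p = 0.000182). RT1-A2 had 1.09, 1.18 and 0.946 CPM in WT and 9.01, 6.96 and 6.30 CPM in Nono-KO. All Nono-KO libraries exceeded all WT libraries for both genes, and RT1-A2 was 6.87-fold higher (log2 fold change 2.78 ± 0.23, edgeR adjusted p = 1.03e-06). RT1-A3 was too low to test, with 3, 0 and 0 counts in WT against 10, 2 and 4 in Nono-KO. Its ratio of counts was 5.61 (1.61 to 30.1, exact 95% interval), and 10 of its 16 Nono-KO counts came from 1 library.

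Among the 12 RT1-CE genes, which belong to the nonclassical region, 6 were tested, of which 4 rose and 2 did not pass. The share that passed was 66.7%, beside 72.2% of all tested genes (34.2% higher and 38.1% lower). RT1-CE5 held the most class I counts in every Nono-KO library, whereas RT1-N3 held the most in every WT library. It had 19.8, 15.5 and 17.2 CPM in WT and 60.5, 61.1 and 49.1 CPM in Nono-KO. These groups lay far apart, with a log2 fold change of 1.70 ± 0.12 (edgeR adjusted p = 4.50e-07). RT1-CE4, RT1-CE14 and RT1-CE15 rose as well, with log2 fold changes of 1.07 ± 0.25, 1.45 ± 0.30 and 1.87 ± 0.46. RT1-CE15 rested on few reads and scattered in Nono-KO, with counts of 5, 9 and 8 in WT against 25, 39 and 13 in Nono-KO. RT1-CE16 and RT1-CE1 overlapped between the groups. RT1-CE16 had 3.58, 5.40 and 3.06 CPM in WT and 2.69, 6.23 and 4.18 CPM in Nono-KO cells (log2 fold change 0.12 ± 0.30, edgeR adjusted p = 0.725), and RT1-CE1 had a log2 fold change of 0.22 ± 0.35 (edgeR adjusted p = 0.589). RT1-CE2 had 0 counts in every WT library and 4, 1 and 11 in Nono-KO, at least 5.61-fold higher against a floor of 3 counts over the group, with 11 of the 16 counts in 1 library. RT1-CE3 had 1 count in each WT library and 2, 10 and 6 in Nono-KO, a ratio of 6.31 (1.84 to 33.5, exact 95% interval).

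The 11 genes of the RT1-M, N, O, S and T series are nonclassical genes too, and their changes ran in different directions. Of the 5 tested, 2 rose, 1 fell and 2 did not pass. RT1-M3-1, named as the counterpart of the mouse molecule that presents formylated peptides, had 8.11, 7.75 and 7.73 CPM in WT and 17.1, 17.6 and 16.4 CPM in Nono-KO. The libraries of each group lay close together, and the log2 fold change was 1.12 ± 0.12 (edgeR adjusted p = 9.05e-06). RT1-N2 rose from 60, 51 and 50 counts to 97, 129 and 134 (log2 fold change 1.23 ± 0.18, edgeR adjusted p = 9.14e-05). RT1-S3 fell, from 4.13, 2.57 and 3.34 CPM in WT to 1.05, 1.00 and 0.90 CPM in Nono-KO. No other tested class I gene fell, and its log2 fold change was -1.76 ± 0.27 (edgeR adjusted p = 9.39e-05), 3.39-fold lower. RT1-N3, with 27.5, 16.5 and 18.1 CPM in WT and 22.9, 22.2 and 21.2 CPM in Nono-KO, overlapped between the groups, with WT 1 the highest library (log2 fold change 0.09 ± 0.17, edgeR adjusted p = 0.649). Without WT 1 its log2 fold change was 0.35 (edgeR adjusted p = 0.0108). RT1-T24-4 behaved alike, with 0.68 ± 0.35 (edgeR adjusted p = 0.0955) in all libraries and 0.97 (edgeR adjusted p = 0.0343) without WT 1. RT1-T24-1 was below the filter and was seen mainly in WT, with 26, 7 and 4 counts there and 0, 0 and 1 in Nono-KO. The ratio of WT to Nono-KO counts was 35.2 (5.93 to 1426, exact 95% interval), and WT 1 held 26 of the 37 WT counts, which leaves 11 against 1 without it.

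The mix of class I transcripts differed as well. RT1-CE5 took 24.8% to 28.2% of class I counts in WT and 39.7% to 42.9% in Nono-KO, and RT1-A2 went from 1.37% to 1.91% up to 4.78% to 6.39%. The share of RT1-N3 was 26.9% to 34.5% in WT, and 15.2% to 17.2% for Nono-KO, and that of RT1-S3 was 4.17% to 5.47% and 0.688% to 0.747%. These 4 were picked after the data were seen, and none of their ranges overlapped between the groups (exact permutation p = 0.1 for each, the smallest possible). Of all 26 shares 9 reached that p, 4 higher and 5 lower, and those of RT1-M3-1, RT1-A1, RT1-N2 and RT1-CE4 did not (exact permutation p = 0.6, 0.2, 0.4 and 0.6). Among the 9 were RT1-CE2, RT1-CE11, RT1-M6-2 and RT1-T24-1, whose counts were too low to test. A share also falls when the class I sum rises, and RT1-N3 and RT1-CE16 lost share while their own levels did not pass. With RT1-CE5 left out, the class I sum still rose, with a log2 fold change of 0.68 ± 0.12 (edgeR adjusted p = 0.000318). The RT1-A and RT1-CE genes alone gave 1.51 ± 0.11 (edgeR adjusted p = 5.21e-07) and the RT1-M, N, O, S and T genes 0.41 ± 0.13 (edgeR adjusted p = 0.016). Within a library, the counts of the first set were 0.755 to 0.993 times those of the second in WT and 1.62 to 1.94 times in Nono-KO. This ratio, examined after the data were seen, differed by 1.08 on the log2 scale (exact permutation p = 0.1, the smallest possible).

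**Figure D2:**
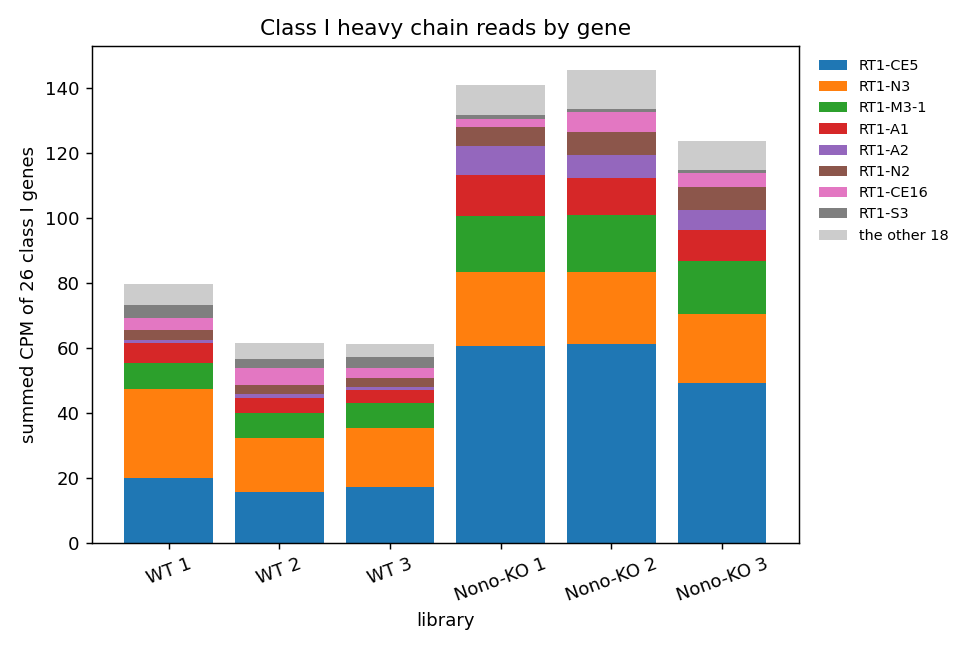
Summed CPM of the 26 class I heavy chain genes (y axis) in each of the 3 WT and 3 Nono-KO libraries (x axis), stacked by gene, with 8 genes in colour and the other 18 together in light grey. The Nono-KO bars reach 124 to 146 CPM and the WT bars 61.0 to 79.7 CPM, the RT1-CE5 block at the base grows, and the RT1-N3 block stays between 16.5 and 27.5 CPM.

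Some class I genes are near copies, and their promoters show it. By global alignment of the 300-base windows, RT1-M6-1 and RT1-M6-2 were 96.0% identical, RT1-CE13 and RT1-CE16 88.2%, RT1-A2 and RT1-A3 84.7% and RT1-A3 and RT1-CE5 83.2%. The median identity was 64.9% between RT1-A and RT1-CE promoters and 41.7% between RT1-A and the RT1-M, N, O, S and T promoters. For the counts that follow, 34.2% of all tested genes were higher and 38.1% lower, and 8 of the 13 tested class I genes rose. Of the 5 tested class I genes with GGGANNNCC, 4 rose and RT1-CE16 did not pass. Of the 7 tested class I genes whose promoter entry lacked these letters, 3 rose, 1 fell and 3 did not pass. Of the 8 tested genes of any role with GAAANNGAA, 5 rose, RT1-S3 fell and B2m and RT1-N3 did not pass. Of the 14 tested genes whose promoter entry lacked these letters, 9 rose, Canx fell and 4 did not pass. Ciita, Erap1 and Pdia3, which fell too, had no promoter entry and are outside these counts. Among class I genes 0 of the 2 with the letters rose and 7 of the 10 without them. Variants were not searched, so genes without a match may hold the element in another form. These counts are small, and a link between letters and change was not tested.

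B2m, the light chain shared by all class I molecules, did not pass the test. It had 188, 169 and 117 CPM in WT and 174, 150 and 216 CPM in Nono-KO, and the groups overlapped (log2 fold change 0.19 ± 0.17, edgeR adjusted p = 0.35). Heavy chain counts were 0.363 to 0.520 times B2m counts in WT and 0.573 to 0.967 times in Nono-KO. That ratio was also examined after the data were seen and differed by 0.83 on the log2 scale, with an exact permutation p of 0.1, the smallest possible.

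The 3 inducible catalytic subunits of the immunoproteasome all rose. Psmb8 showed the largest change of the 3, from 5.62, 7.22 and 6.84 CPM in WT to 42.0, 42.2 and 35.1 CPM in Nono-KO. This was 6.06-fold higher (log2 fold change 2.60 ± 0.14, edgeR adjusted p = 5.47e-08). Psmb9 had 3.93, 5.35 and 5.84 CPM in WT and 17.1, 19.5 and 14.6 CPM in Nono-KO cells (log2 fold change 1.76 ± 0.18, edgeR adjusted p = 4.45e-06). Psmb10 moved less, from 41.7, 41.0 and 44.1 CPM to 81.4, 74.4 and 66.2 CPM, again without overlap (log2 fold change 0.81 ± 0.10, edgeR adjusted p = 1.70e-05).

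These subunits replace the constitutive subunits Psmb5, Psmb6 and Psmb7 in the immune form of the proteasome. The constitutive genes rose too, with log2 fold changes of 0.95, 0.85 and 0.53. Psmb8 counts per 100 Psmb5 counts were 2.78 to 3.60 in WT, and 9.80 to 10.3 for Nono-KO. The log2 ratio differed by 1.65 for this pair, by 0.92 for Psmb9 to Psmb6 and by 0.27 for Psmb10 to Psmb7. None of the 3 ratios overlapped between the groups, and each exact permutation p was 0.1, the smallest possible.

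**Figure D3:**
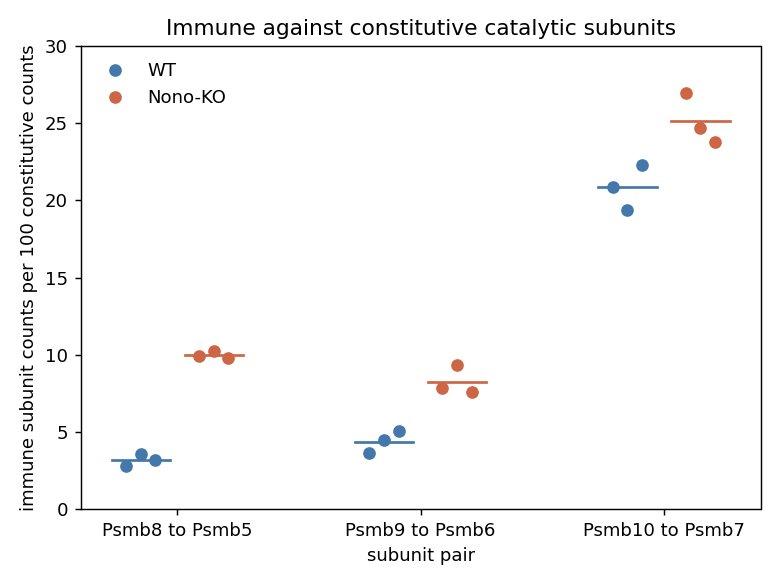
Counts of each inducible subunit per 100 counts of the constitutive subunit it replaces (y axis) for 3 pairs (x axis), with 1 point per library and a line at the group mean. The Psmb8 pair goes from about 3 to about 10, and the Psmb10 pair, from 19.4 to 22.3 in WT, lies above that in every Nono-KO library.

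Both subunits of the peptide transporter rose. Tap1 had 39.6, 38.6 and 43.1 CPM in WT and 127, 127 and 105 CPM in Nono-KO, 2.96-fold higher (log2 fold change 1.56 ± 0.10, edgeR adjusted p = 2.10e-07). Tap2 had 33.0, 30.6 and 34.7 CPM in WT and 66.8, 71.2 and 61.4 CPM in Nono-KO cells (log2 fold change 1.02 ± 0.10, edgeR adjusted p = 2.57e-06). The promoters of both held GAAANNGAA, as shown above.

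The loading complex did not move as a unit. Tapbp, or tapasin, which bridges TAP and the heavy chain, rose from 80.5, 73.5 and 82.5 CPM to 124, 121 and 99.4 CPM (log2 fold change 0.54 ± 0.10, edgeR adjusted p = 0.000508). Canx, the lectin chaperone calnexin that holds new heavy chains, fell from 184, 293 and 244 CPM to 113, 110 and 126 CPM. Its log2 fold change was -1.05 ± 0.14 (edgeR adjusted p = 4.64e-05), 2.07-fold lower. Pdia3, the disulfide isomerase ERp57 that pairs with tapasin, fell from 473, 618 and 582 CPM to 312, 331 and 372 CPM (log2 fold change -0.72 ± 0.11, edgeR adjusted p = 9.16e-05). None of these 3 genes overlapped between the groups. Tapbp counts were 0.250 to 0.437 times Canx counts in WT and 0.790 to 1.10 times in Nono-KO, a ratio examined after the data were seen (exact permutation p = 0.1, the smallest possible). Tapbpl, the tapasin relative TAPBPR that edits peptides outside the complex, had 28.0, 19.4 and 19.1 CPM in WT and 22.9, 22.0 and 23.3 CPM in Nono-KO, with WT 1 the highest library and no call (log2 fold change 0.04 ± 0.15, edgeR adjusted p = 0.832).

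Erap1, the aminopeptidase that trims peptides in the endoplasmic reticulum, fell. It had 38.8, 42.8 and 37.0 CPM in WT and 17.8, 17.0 and 21.1 CPM in Nono-KO. The groups were far apart, and the log2 fold change was -1.08 ± 0.12 (edgeR adjusted p = 6.85e-06), 2.12-fold lower.

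**Figure D4:**
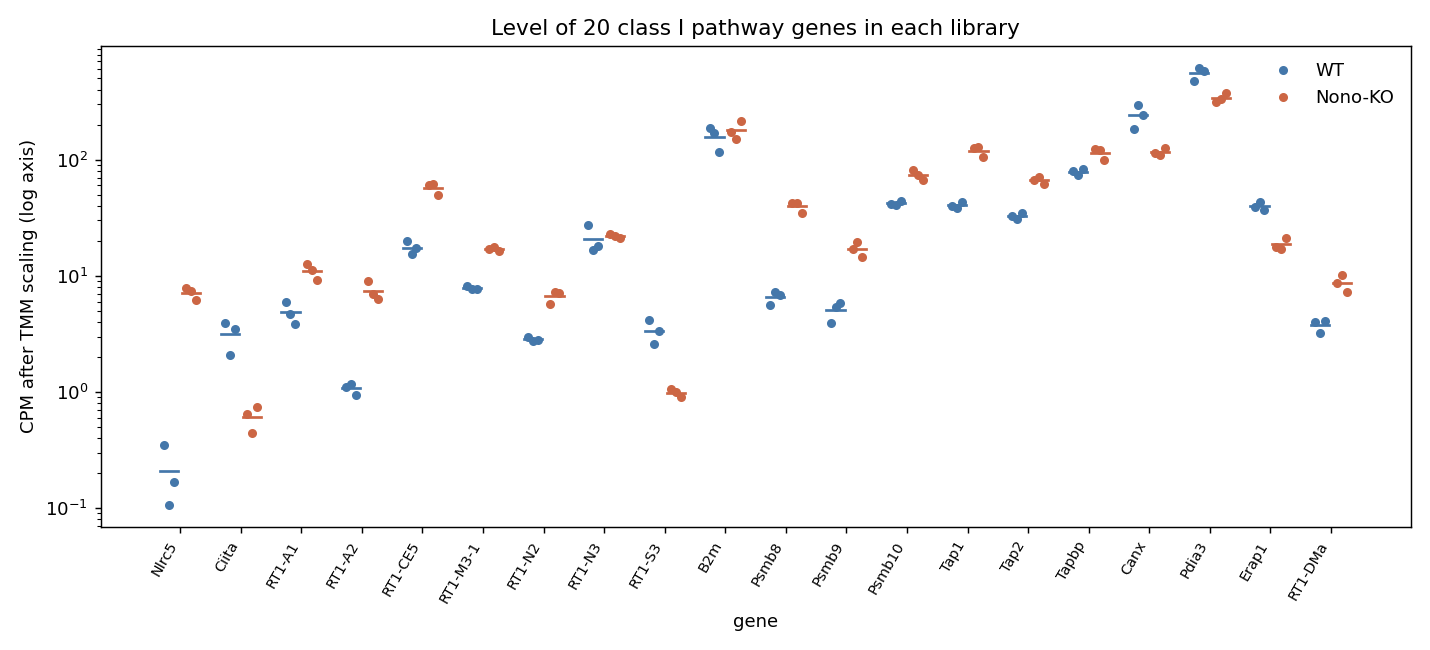
CPM after TMM scaling on a log axis (y axis) for 20 of the 47 genes (x axis), with 1 point per library, WT in blue and Nono-KO in orange, and a line at each group mean. Nlrc5 rises from the bottom of the plot to 6.14 to 7.84 CPM, B2m and RT1-N3 overlap between the groups, and Ciita, RT1-S3, Canx, Pdia3 and Erap1 are the 5 genes whose Nono-KO points all lie below the WT points.

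The class II genes were close to absent, apart from the DM genes. RT1-Ba, RT1-Bb, RT1-Da, RT1-Db1 and RT1-DOb, chains of the class II and DO molecules, had 0 to 3 counts in every library. RT1-DMa, a chain of the DM molecule that exchanges class II peptides, had 3.98, 3.21 and 4.06 CPM in WT and 8.66, 10.1 and 7.25 CPM in Nono-KO. It rose, with a log2 fold change of 1.21 ± 0.19 (edgeR adjusted p = 0.000123), while Ciita fell. Its partner RT1-DMb was below the filter, with 1, 2 and 1 counts in WT against 20, 15 and 4 in Nono-KO, a ratio of 10.3 (3.70 to 39.5, exact 95% interval). Cd74, the invariant chain that guards the class II groove, had 4, 3 and 3 counts in WT against 6, 12 and 6 in Nono-KO, a ratio of 2.53 (1.16 to 5.92).

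The 20 genes too low to test were 19 RT1 genes and Cd74, and none passed 26 counts in a library. Together they had 83 counts in WT and 173 in Nono-KO, and 15 had more counts in Nono-KO, 4 had fewer and 1 had equal counts. The 14 genes with fewer than 10 counts in every library carry no precise comparison.

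By their order in the RefSeq gene table of GRCr8, 38 of the 47 genes lie on chromosome 20, the chromosome of the rat MHC. Tap2, Psmb8, Tap1 and Psmb9 are direct neighbours there, and all 4 rose, beside 34.2% of all tested genes. The RT1-A genes and Tapbp follow at the far end, and the 3 tested genes of that end rose. RT1-S3, which fell, stands between RT1-N3 and RT1-T24-4 in the order of the 38, neither of which passed. The genes outside chromosome 20 include Nlrc5, Ciita, B2m, Psmb10, Canx, Pdia3 and Erap1.

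**Figure D5:**
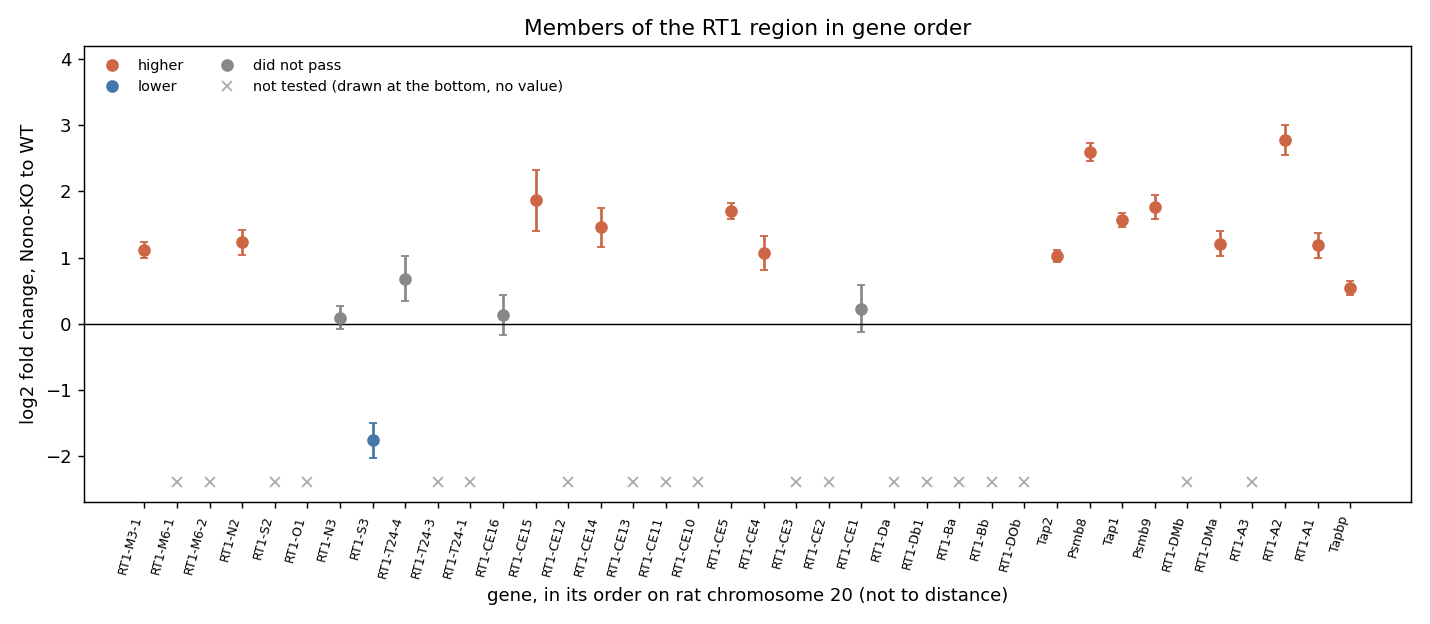
Log2 fold change with its standard error (y axis) for the members on chromosome 20, placed in gene order and not to distance (x axis), with crosses at the bottom for genes too low to test. The run Tap2, Psmb8, Tap1 and Psmb9 lies between 1.02 and 2.60, and RT1-S3 at -1.76 is the single tested gene below 0.

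Other genes of the route showed no common direction. Neither did all tested genes, of which 34.2% were higher and 38.1% lower, with a median log2 fold change of -0.05. Of 15 genes of peptide supply, all tested, 6 rose, 7 fell and 2 did not pass, with a median log2 fold change of -0.23. Psme1 and Psme2, the interferon-inducible proteasome activator PA28, rose by 0.89 ± 0.09 and 1.48 ± 0.09 on the log2 scale. Psme4, the activator PA200, fell from 19.9, 34.7 and 29.4 CPM to 3.80, 4.62 and 3.87 CPM, a log2 fold change of -2.77 ± 0.21. The peptidases Lnpep and Tpp2 fell as well, at -2.01 ± 0.23 and -1.82 ± 0.17. Pomp, which helps assemble proteasomes, stood at 0.02 ± 0.09 and did not pass.

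Of 15 genes of folding and the endoplasmic reticulum, 3 rose, 8 fell and 4 did not pass, with a median of -0.20. Bcap31, an export receptor for class I, fell at -1.11 ± 0.08, and Uggt1, the glucosyltransferase that returns unfinished glycoproteins to the lectins, at -1.02 ± 0.11. The chaperone Hsp90b1 fell at -0.86 ± 0.15 and the isomerase Pdia4 at -0.69 ± 0.13. P4hb, among the most abundant genes of this list, fell at -0.20 ± 0.07. Calr, or calreticulin, the lectin of the loading complex, had 0.19 ± 0.10 and did not pass (edgeR adjusted p = 0.0922), so it did not fall with Canx. Without Nono-KO 3, 5 genes of this list rose in place of 3.

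Of 38 promoter factors and interferon inputs, 9 rose, 17 fell and 12 did not pass, with a median of -0.26. Rfx5 and Rfxank, subunits of the RFX complex that NLRC5 works with, rose at 0.78 ± 0.15 and 0.86 ± 0.15, and the third subunit, Rfxap, had 0.07 ± 0.11 and did not pass. Irf7, an interferon-induced factor, rose from 23.5, 20.2 and 20.9 CPM to 69.1, 63.8 and 55.9 CPM (log2 fold change 1.55 ± 0.11, edgeR adjusted p = 3.54e-07). Stat2 rose at 0.75 ± 0.10. The kinases of the interferon receptors moved the other way, Jak1 at -1.95 ± 0.12 and Jak2 at -1.90 ± 0.22, and so did the coactivator Ep300 at -1.84 ± 0.13. Irf1, an interferon-induced factor that acts at class I promoters, had 0.10 ± 0.10 and did not pass. Of the NF-kB genes, Nfkb1 fell at -0.53 ± 0.08 and Rela, Relb and Nfkb2 did not pass.

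Immune cells carry much more class I than myoblasts, so their markers were read beside these results. Of 21 immune markers 15 had a row in the table used here, and 8 of these had at most 3 counts in every library, among them Cd4, Cd79a, Itgam and Tyrobp. The summed level was 40.5 to 50.7 CPM in WT and 83.6 to 86.6 CPM in Nono-KO. Cd14 made up most of the WT sum, with 38.4, 28.6 and 28.5 CPM in WT and 31.8, 28.0 and 26.6 CPM in Nono-KO. It did not pass, with a log2 fold change of -0.15 ± 0.13. Cd3e, a chain of the T cell receptor complex, went from 3.43, 7.33 and 7.23 CPM to 50.9, 49.0 and 52.3 CPM, whereas its partner Cd3g had at most 7 counts in any library. The macrophage receptor Csf1r fell at -1.87 ± 0.29 and Itgax rose at 1.61 ± 0.46. The endothelial markers summed to 26.7 to 33.1 CPM in WT and 45.1 to 60.4 CPM in Nono-KO, nearly all of it Egfl7, with Pecam1, Kdr and Tek at no more than 4 counts. Vwf fell, at -2.07 ± 0.29. The fibroblast markers summed to 37364 to 45206 CPM in WT and 28851 to 33972 CPM in Nono-KO, nearly all of it collagen, with Dcn and Pdgfra at no more than 5 counts. Of the 7 fibroblast markers tested, 3 fell (Col1a1, Col1a2 and Postn), 3 rose (Thy1, Fbln1 and Fbln2) and Col3a1 did not pass. Of 5 immune markers tested, 2 rose, 1 fell and 2 did not pass, and of 2 endothelial markers 1 rose and 1 fell. Among all tested genes 72.2% passed, 34.2% higher and 38.1% lower. In bulk RNA, a change in how many cells express a gene and a change in RNA per cell cannot be told apart.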

How the data were processed

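RNA-seq libraries of H9c2 WT and Nono-KO cells (n = 3 each) were grouped by the genotype labels. The authors made stranded mRNA libraries and deposited unscaled counts for each gene symbol and library, with no pooling. Trimmomatic, HISAT2, HTSeq and mRatBN7.2 appear in the submitters' processing notes, and Bowtie2 and Rn6 in the paper's methods. No source used here gives the strand or multi-mapping settings of the counting.

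Counts were tested in R 4.3.3 with edgeR 4.0.16 (robust quasi-likelihood, TMM scaling, filterByExpr, no block) over 12028 of 16319 genes, with Benjamini-Hochberg adjustment over all of them. CPM was computed with TMM. Standard errors were derived from the log2 fold change and its F statistic (their ratio, with F square-rooted). Class I genes were also summed and fitted beside all genes. Subunit ratios used a pseudocount of 0.5 counts and an exact permutation test. Same-numbered libraries did not deviate together. Alternatives were other scalings, filters, thresholds, DESeq2 1.42.0, thinning and leaving out libraries.

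Members, gene lists and tests were chosen with earlier results of these data known. Described singly were members with at least 10 counts in some library, and from each list the genes with the largest calls and the most abundant ones; Psme1, Stat2, Irf1, the RFX and NF-kB genes and further marker genes were added after their values were seen. GRCr8 tables from RefSeq gave promoters and gene order only. Intervals cover counting error only. Values of 1 gene of the promoter factor list are left out of the text.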

Additional observations from a re-analysis of the deposited data

How the results depend on the processing

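The 16 higher and 5 lower members became 14 and 4 at the study's thresholds and 21 and 6 with no filter on low counts, where all 47 were tested. Leaving out 1 library at a time gave 16 to 19 higher and 5 lower, a class I sum of 0.95 to 1.15 on the log2 scale, 21 to 24 higher and 28 to 35 lower partner genes, and log2 ratio differences of 1.55 to 1.74 for Psmb8 to Psmb5, 0.79 to 1.03 for Psmb9 to Psmb6 and 0.22 to 0.32 for Psmb10 to Psmb7. Of 348 values of single tested members under alternatives, 346 stayed on their side of the threshold, with no called value changing direction, and the other 2, RT1-N3 and RT1-T24-4, passed without WT 1. Of the partner genes, 23 higher and 34 lower became 3 and 13 at the study's thresholds. The median of all genes was -0.05, 0.00 with size factors of DESeq2 and -0.11 with total counts, and no called member changed direction. With the replicate block the members stayed at 16 and 5, the partner genes became 22 and 31 and the class I sum was 1.03. The replicate numbers were not taken as pairs, since the deviations of same-numbered libraries correlated at 0.07, -0.21 and -0.24. Those of unlike number correlated at -0.18 to 0.31, highest for WT 2 with Nono-KO 3, so a shared factor not given by the numbers was not tested. At this depth the libraries cannot resolve members with a few reads.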

Other observations

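Ligands related to class I or read by natural killer cells were listed as well. Of 16 listed genes, 11 had a row in the table used here and 7 were tested, of which 3 rose, 1 fell and 3 did not pass. Among all tested genes 34.2% were higher and 38.1% lower. Pvr, the poliovirus receptor and a ligand of DNAM-1 and TIGIT, fell from 161, 276 and 276 CPM in WT to 70.3, 67.5 and 75.2 CPM in Nono-KO cells (log2 fold change -1.74 ± 0.18, edgeR adjusted p = 9.05e-06). Its relative Nectin2, a ligand of the same receptors, rose from 91.3, 117 and 125 CPM to 175, 178 and 151 CPM (log2 fold change 0.60 ± 0.12, edgeR adjusted p = 0.000718). The groups did not overlap for either gene. Fcgrt, the class I like receptor that recycles antibody, rose at 0.33 ± 0.10 and Procr, a class I like receptor of protein C, at 0.57 ± 0.14. The checkpoint ligand Cd274 had at most 9 counts in any library.

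Of 12 listed genes of the class II route, 10 had a row and 7 were tested, of which 2 rose, 1 fell and 4 did not pass. The shares over all tested genes are those given above. Cd80, a costimulatory ligand of T cells, rose from 5.67, 7.91 and 6.90 CPM to 24.3, 20.5 and 27.7 CPM (log2 fold change 1.83 ± 0.16, edgeR adjusted p = 1.71e-06), while Cd40 had at most 3 counts in any library. Marchf8, a ubiquitin ligase that removes class II from the surface, fell at -0.42 ± 0.09. The lysosomal protease Ctsd rose at 0.23 ± 0.09 (edgeR adjusted p = 0.045), a call near the threshold: 1 gene of this list rose in place of 2 without WT 1, WT 2, Nono-KO 1 or Nono-KO 2. Ctsb, at -0.05 ± 0.08, did not pass.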
